A study of Mus musculus with 6 samples.

Results

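The genes examined here carry, make, degrade or sense retinoic acid, the vitamin A derivative. They are the carrier *Stra6*, the binding proteins *Crabp1* and *Crabp2*, the enzymes *Dhrs3*, *Aldh1a2* and *Cyp26a1*, and the receptors *Rara*, *Rarb* and *Rarg*. Members were found in the deposited table of all probe sets by symbol, by an older alias or by gene identifier, and each gene is given by its probe set with the highest mean. Of the 9 genes, 8 had a probe set, 9 probe sets in all, among the 15378 genes named on 33142 probe sets. *Rarb* had none under any of its names and is not analysed further on the expression side. *Dhrs3* stands in the table under an older name, and *Crabp2* was found by its gene identifier.

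Undifferentiated mouse embryonic stem cells (mESCs) of the C57BL/6 strain were compared between wild type (WT) and *Alkbh1*-/- cells, the latter lacking the AlkB homolog ALKBH1, with 3 microarrays for each genotype at passage 8 and day 0 of differentiation. Both lines were derived from littermate embryos and grown with leukemia inhibitory factor on irradiated mouse embryonic fibroblasts, and no retinoic acid had been added to these cultures. The labels do not say whether the arrays of a genotype came from separate cultures, so p-values measure the spread between these arrays, and a difference between genotypes cannot be told apart from one between the derived lines. Only means and differences of the genotypes were analysed here, without values of single arrays, so the overlap of arrays between genotypes is not given.

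Retinol enters cells through STRA6 and is oxidized to retinal, a step that DHRS3 runs in reverse. ALDH1A2 then oxidizes retinal to retinoic acid, which CRABP1 and CRABP2 bind in the cytoplasm and CYP26A1 degrades. Retinoic acid receptors pair with retinoid X receptors on DNA and switch from repressing to activating their target genes when the ligand binds, and in mESCs the ligand drives exit from pluripotency and neural differentiation. In the study, retinoic acid served to induce that differentiation, and the arrays show the same pathway before induction.

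Receptors of this family recognize repeats of a hexamer in DNA, and the textbook retinoic acid response element (DR5) is a direct repeat with a spacer of 5 bases. The upstream sequences below show this element at *Cyp26a1* and *Rarb*, classical targets of the receptors themselves, and the starts of the members that were called lower and higher. They come from RefSeq on GRCm38.p6, read 5′ to 3′ on the strand of the gene and end at the base before the annotated start. Capitals mark the DR5 in *Cyp26a1* and *Rarb* and a single hexamer in *Rarg*, and the stretch of *Aldh1a2* holds none. They lie at chr19:37697708-37697807 (plus strand), chr14:16575477-16575576 (minus strand), chr15:102257523-102257772 (minus strand) and chr9:71215689-71215788 (plus strand), in that order.
Cyp26a1: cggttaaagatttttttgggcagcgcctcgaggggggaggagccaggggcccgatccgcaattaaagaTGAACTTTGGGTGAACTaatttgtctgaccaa
Rarb: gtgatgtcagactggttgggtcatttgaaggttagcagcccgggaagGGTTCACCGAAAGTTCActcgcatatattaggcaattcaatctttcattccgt
Rarg: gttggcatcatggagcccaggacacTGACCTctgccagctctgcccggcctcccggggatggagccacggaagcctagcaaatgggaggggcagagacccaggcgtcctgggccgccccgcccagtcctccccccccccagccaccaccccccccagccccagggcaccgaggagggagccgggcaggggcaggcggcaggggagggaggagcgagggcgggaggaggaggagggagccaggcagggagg
Aldh1a2: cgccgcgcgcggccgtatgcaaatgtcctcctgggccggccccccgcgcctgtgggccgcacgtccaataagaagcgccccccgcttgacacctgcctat

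The search used the hexamers AGNTCA and GGNTCA, with N either G or T, on both strands in windows from 250 bases before to 50 bases after each start. A DR5 was found in 32 of 32851 windows (0.0974%), and 2 of these are those of *Cyp26a1* and *Rarb*, where it begins 32 and 53 bases before the start. The same hexamers with a spacer of 2 bases (DR2) were found in 0.268% of windows and in 0 of the 17 windows of the members. A single hexamer, which every DR5 and DR2 also holds, was found in 43.7% of all windows and in 6 of the 17. The hexamer of *Rarg* lies 225 bases before its upstream start, and the window at its other start has none. RefSeq windows were at hand for 8 of the 9 members, all but *Crabp2*. A match describes the sequence only, and the letters absent from one window may stand elsewhere.

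Labels and direction were checked on the targeted gene. *Alkbh1* (1434660_at, chromosome 12) had a mean log2 value of 9.57 in WT and 4.69 in *Alkbh1*-/- mESCs, a log2 difference of −4.89 (standard error 0.17), with an adjusted p of 2.99e-05 by the moderated test of limma. Its other probe set, 1438681_at, was lower by −1.79. The identity of the rows matters for this pathway, because the second deposited table holds the same values beside other identifiers. Where a gene has 2 listed probe sets, their differences correlated across 721 genes with r = 0.93 in the larger table and r = 0.02 in the other, a description over genes that are no independent replicates. The larger table was used for that reason. All 10 stem cell markers lay above the median mean of all probe sets, with mean log2 values between 10.05 and 14.49.

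A member was called when its adjusted p was under 0.05 and its linear fold was over 1.5, a log2 difference of 0.585 in size. Of the 8 measured members, 2 were called, *Aldh1a2* higher and *Rarg* lower in *Alkbh1*-/- mESCs. Over all probe sets, 6.99% were called (3.86% higher and 3.13% lower), and over the brightest probe set of each gene 8.6%. With 8 genes, the members' count of 2 is a description. Their median log2 difference was −0.07, against −0.01 for all probe sets. For 5 of the 6 members that were not called, the whole 95% confidence interval lay within a fold of 1.5 in either direction. The exception was *Crabp2*. Among the 5, *Stra6*, *Dhrs3* and *Cyp26a1* were dim, with means below the median of all probe sets. For such probe sets, the interval bounds the array signal and may not bound the change in RNA.

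**Figure D1:**
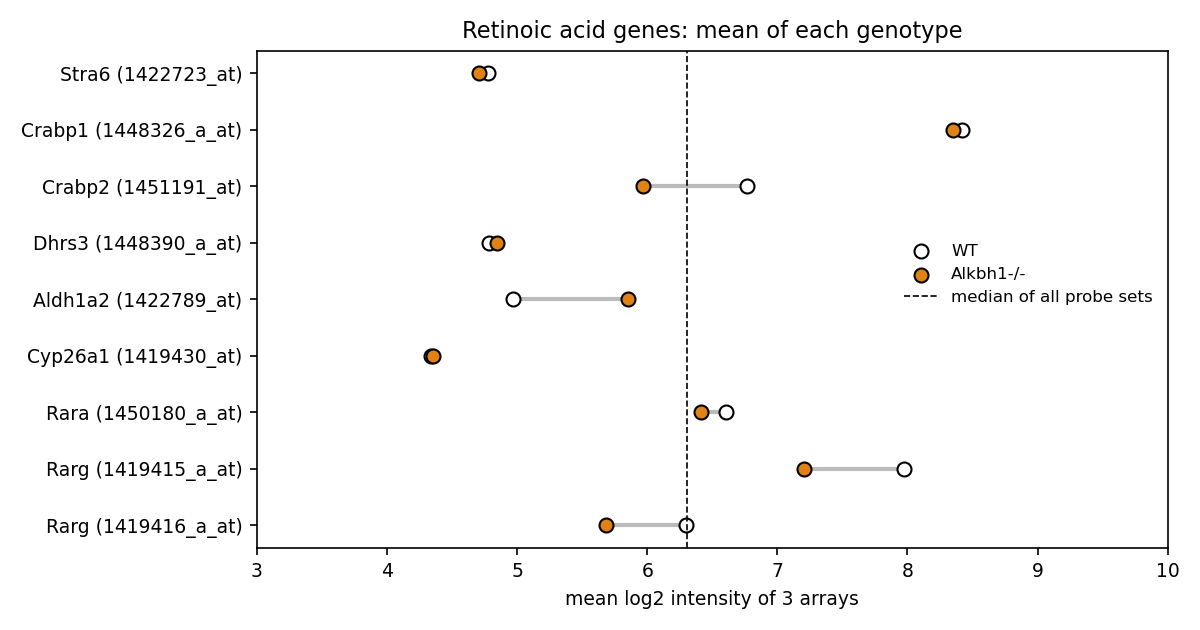
Mean log2 intensity of 3 WT arrays (open circles) and 3 *Alkbh1*-/- arrays (filled circles) for the 9 probe sets of the members, with the median of all probe sets (6.31) as a dashed line. The circles lie apart for *Aldh1a2*, *Crabp2* and both probe sets of *Rarg*, and nearly coincide for *Stra6*, *Crabp1*, *Dhrs3* and *Cyp26a1*. Probe sets differ in how they hybridize, so positions are to be read along a row and not between rows.

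Among the receptors, *Rarg*, the isotype best known from the early embryo and from stem cell differentiation, was lower in *Alkbh1*-/- mESCs at both of its probe sets. At 1419415_a_at (chromosome 15), the mean log2 value was 7.98 in WT and 7.20 in *Alkbh1*-/- mESCs. The log2 difference was −0.77, a fold of 1.71 (standard error 0.11, 95% confidence interval −1.04 to −0.50), and the moderated test of limma gave an adjusted p of 0.00565. The geometric means of the linear intensity in the second deposited table, joined by value, were 252 in WT and 148 in *Alkbh1*-/- cells.

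The other probe set of *Rarg*, 1419416_a_at, was dimmer, with means of 6.30 in WT and 5.68 in *Alkbh1*-/- mESCs. Its log2 difference of −0.61 (interval −0.89 to −0.34, adjusted p = 0.0157) was close to the threshold of the fold and past it. Both intervals of *Rarg* lay below 0 and both reached to smaller changes than a fold of 1.5. The median log2 difference of the fibroblast markers described below, −0.81, had the same sign and a similar size, and their part in that of *Rarg* was not tested. With a test against that fold instead of against no difference (limma's treat), the adjusted p of *Rarg* was 1.

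*Rara*, the most widely expressed of the retinoic acid receptors (1450180_a_at, chromosome 11), had means of 6.61 in WT and 6.41 in *Alkbh1*-/- mESCs. Its log2 difference was −0.20 with an interval from −0.42 to 0.03 (adjusted p = 0.256, same test). On the linear scale the interval ran from 0.745 to 1.02 times the WT level. Whether *Rarg* and *Rara* differ in their response was not tested, since this needs values of single arrays.

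Of the enzymes, only *Aldh1a2* was called. It encodes retinaldehyde dehydrogenase, the main source of retinoic acid in the early embryo. Its probe set, 1422789_at on chromosome 9, had mean log2 values of 4.96 in WT and 5.85 in *Alkbh1*-/- mESCs. The log2 difference was 0.89, a fold of 1.85 (standard error 0.09, interval 0.68 to 1.10, adjusted p = 0.00120). This interval lay above a fold of 1.5 throughout, from 1.60 to 2.14, although treat gave an adjusted p of 0.254 over all probe sets. The signal was dim in both genotypes: the geometric means of the linear intensity were 31.2 in WT and 57.8 in *Alkbh1*-/- cells, and 36.4% of all probe sets had a mean at or below it. When probe sets dimmer than the median of all were left out, *Aldh1a2* was not among those tested.

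*Dhrs3* and *Cyp26a1*, which both act to limit retinoic acid and are both induced by it, did not pass the test. *Dhrs3* (1448390_a_at, chromosome 4) had means of 4.78 in WT and 4.85 in *Alkbh1*-/- mESCs, a log2 difference of 0.06 (interval −0.13 to 0.25, adjusted p = 0.678). *Cyp26a1* (1419430_at, chromosome 19) had means of 4.34 in WT and 4.35 in *Alkbh1*-/- mESCs, a log2 difference of 0.02 (interval −0.31 to 0.35, adjusted p = 0.962). *Cyp26a1*, whose DR5 is printed above, was the dimmest of the members, with 15.3% of all probe sets at or below its mean.

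**Figure D2:**
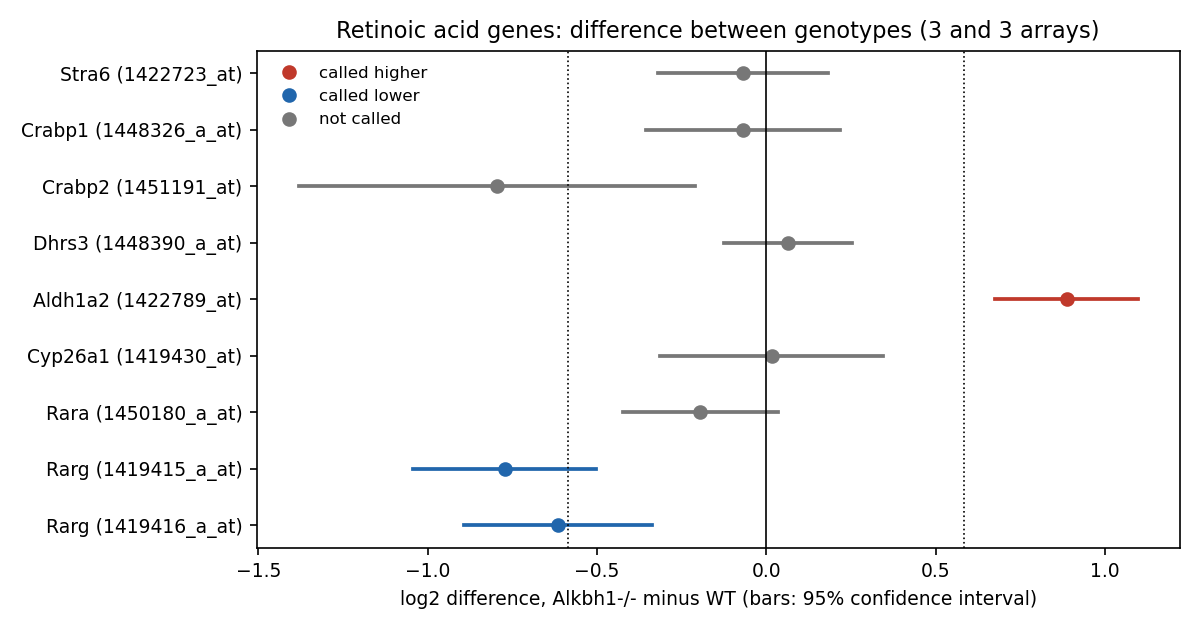
Log2 difference, *Alkbh1*-/- minus WT, of the 9 probe sets of the members (points) with 95% confidence intervals (bars), 3 arrays in each genotype. Dotted lines mark a linear fold of 1.5. *Aldh1a2* is called higher at 0.89, *Rarg* is called lower at −0.77 and −0.61, and *Crabp2* has the widest interval, from −1.38 to −0.21.

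Neither of the binding proteins was called. CRABP1 is thought to hold retinoic acid in the cytoplasm and pass it to degrading enzymes, and CRABP2 to deliver it to the receptors. *Crabp1* (1448326_a_at, chromosome 9) was the brightest of the members, with means of 8.42 in WT and 8.35 in *Alkbh1*-/- mESCs. Its log2 difference was −0.07 (interval −0.35 to 0.22, adjusted p = 0.782).

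*Crabp2* (1451191_at, chromosome 3) had means of 6.77 in WT and 5.97 in *Alkbh1*-/- mESCs. Its log2 difference of −0.80, a fold of 1.74, was as large in size as that of *Rarg*, but its standard error was 0.25 and its interval ran from −1.38 to −0.21 (unadjusted p = 0.0146 and adjusted p = 0.0847 by the moderated test of limma). It was not called. Geometric means of the linear intensity were 109 in WT and 62.7 in *Alkbh1*-/- cells. The difference between *Crabp1* and *Crabp2* was not tested.

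The cultures held feeder fibroblasts, and the differences of their markers had the sign of those of *Crabp2* and of the called *Rarg*. All 25 fibroblast markers had a lower mean in *Alkbh1*-/- mESCs, with a median log2 difference of −0.81 and a range from −1.11 (*Tagln*) to −0.30. None of them was called (limma's moderated test; 0 with an adjusted p under 0.05, 16 with an unadjusted p under 0.05), and their median standard error was 0.34, against 0.11 for all probe sets. *Col1a1*, a collagen of fibroblasts, was at −1.06. The summed linear intensity of the list, from the genotype means, was 24057 in WT and 13237 in *Alkbh1*-/- mESCs. The standard error of *Crabp2* was at or above that of 96.6% of all probe sets, while those of *Rarg* and *Aldh1a2* were 0.11 and 0.09. The part of feeder RNA in the differences of the members was not tested. Here as elsewhere in bulk RNA, fewer cells of a type and less RNA per cell cannot be told apart.

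*Stra6*, the receptor that takes up retinol from its carrier in blood (1422723_at, chromosome 9), had means of 4.78 in WT and 4.71 in *Alkbh1*-/- mESCs. Its log2 difference was −0.07 (interval −0.32 to 0.18, adjusted p = 0.744), and it too was dim, with 24.0% of probe sets at or below its mean. *Stra6*, *Dhrs3*, *Cyp26a1* and *Aldh1a2* are the 4 measured members below the median of all probe sets.

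**Figure D3:**
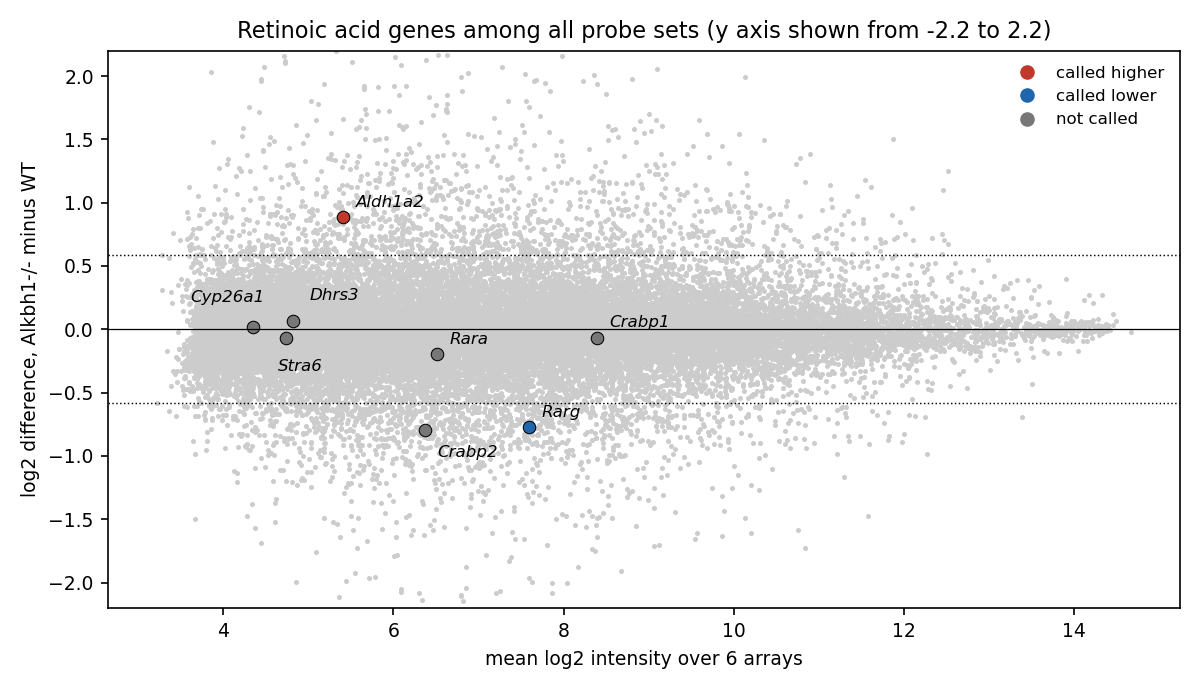
Mean log2 intensity over all arrays (x axis) against the log2 difference, *Alkbh1*-/- minus WT (y axis), for all 33142 probe sets (grey; the y axis leaves out the few beyond 2.2 in size) and the 8 measured members at their brightest probe sets. *Aldh1a2* lies above the upper dotted line and *Rarg* and *Crabp2* lie below the lower one, the lines marking a fold of 1.5, and the remaining members lie near 0.

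Beyond the members, 6 lists covered the rest of the pathway, with 64 of 77 genes measured. Of the 64, 4 were called higher, 3 lower and 57 were not called, near the 8.6% called over the brightest probe sets of all genes, and the median log2 difference was −0.04. No gene was called among the retinoic acid hydroxylases, where *Cyp26b1* was the one measured, at −0.04 (interval −0.23 to 0.16).

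For uptake, transport and storage, 1 of 7 measured genes was called. *Rbp7*, a cellular retinol-binding protein, was lower by −0.66 on the log2 scale (adjusted p = 0.0131), at a dim probe set, with 12.8% of all probe sets at or below its mean. *Fabp5*, which can carry retinoic acid to another nuclear receptor, was at −0.37 (adjusted p = 0.0868).

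Of 16 measured retinoid enzymes, 1 was called. *Dhrs7*, a short-chain dehydrogenase, was higher by 1.20 on the log2 scale, a fold of 2.29 (interval 0.96 to 1.44, adjusted p = 0.000682), with means of 7.00 in WT and 8.19 in *Alkbh1*-/- mESCs. Its much dimmer probe set, 1432891_at, was at −0.12 (adjusted p = 0.502). *Dhrs7* lies on chromosome 12 at 72.65 Mb (GRCm38.p6), as does the targeted *Alkbh1*, at 87.43 Mb. *Rdh11*, *Rdh12* and *Rdh14* of the same list, also on chromosome 12, were not called, at 0.08, 0.01 and −0.09. The part of the targeted locus in the difference of *Dhrs7* was not tested. *Rdh10*, the retinol dehydrogenase that supplies ALDH1A2 with retinal in the embryo, was at −0.24 (interval −0.42 to −0.07, adjusted p = 0.0773). *Cyp1b1* had the lowest value of the list, −1.03, with an interval from −2.02 to −0.04 (adjusted p = 0.168) and a standard error of 0.42, above the median of the fibroblast markers. Its 3 probe sets ranged from that value to −0.001. The part of feeder RNA in the difference of *Cyp1b1* was not tested.

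The retinoid X receptors, partners of the retinoic acid receptors, went both ways. *Rxra* was higher, with means of 6.58 in WT and 7.18 in *Alkbh1*-/- mESCs and a log2 difference of 0.60 (interval 0.39 to 0.80, adjusted p = 0.00502), a fold of 1.51 that barely passed the threshold. Its other probe set, at 0.46 (adjusted p = 0.0204), passed the test but not the fold. *Rxrb* had means of 8.93 in WT and 8.54 in *Alkbh1*-/- mESCs. Its log2 difference of −0.40 (interval −0.61 to −0.19, adjusted p = 0.0285) did not reach the fold. *Rxrg*, dim in both genotypes, was at −0.20 (adjusted p = 0.409).

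Of 14 corepressors and coactivators of these receptors, 1 was called, *Tbl1x*, a subunit of the corepressor complex, at 0.71 (adjusted p = 0.00403). Its dimmer probe set was at 0.76 and was not called (adjusted p = 0.0936). *Tbl1x* is X-linked, and X-linked genes were higher as a group: 334 of them at or above the median brightness had a median log2 difference of 0.65, against −0.04 for 9196 autosomal genes, while 5 of 10 Y-linked genes were called lower. None of the members is X- or Y-linked, but autosomal genes can also differ between lines that differ in their sex chromosomes. The part of this in the differences of the members was not tested. Without the fold, 5 of the 14 had an adjusted p under 0.05, against 12.9% of all probe sets. Among them were *Ncoa2* and *Ncoa6*, coactivators, at 0.43 and 0.34, and *Carm1*, a coactivating arginine methyltransferase, at −0.51.

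**Figure D4:**
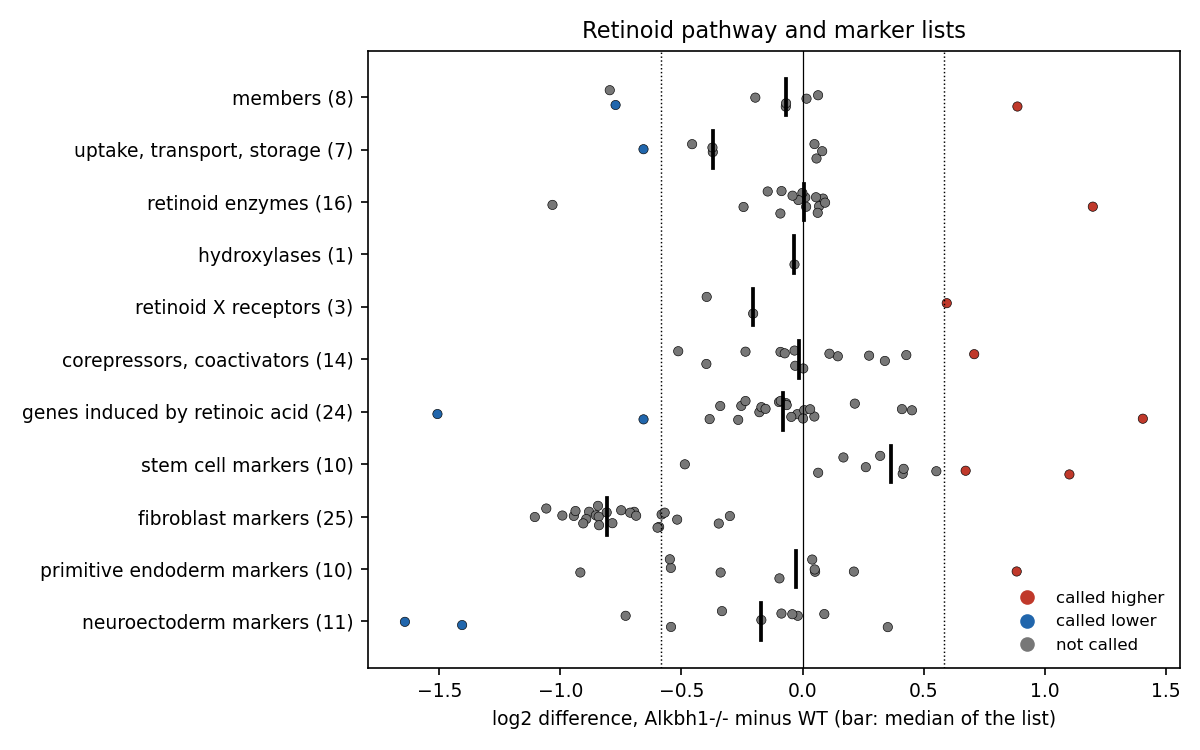
Log2 difference, *Alkbh1*-/- minus WT, at the brightest probe set of each gene (points) for the members, 6 lists of the retinoid pathway and 4 lists of cell type markers, with the number of genes measured in parentheses and the median of each list as a bar. Dotted lines mark a linear fold of 1.5. The pathway lists other than uptake and the retinoid X receptors have medians close to 0, and all 25 fibroblast markers lie to the left.

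Genes that retinoic acid induces in embryonic stem or carcinoma cells were examined as a readout downstream of the receptors. Of 24 measured, 3 were called, 1 higher and 2 lower, where 8.6% of all genes were called, and the median log2 difference was −0.08. With so few genes, this count is not set apart from that share. *Cdx1*, a direct target in the embryo, was not called, at −0.07 (interval −0.41 to 0.28). *Stra8*, a retinoic acid target of germ cells, was at 0.41 (adjusted p = 0.0365), under the fold threshold.

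*Tgm2*, the transglutaminase of many tissues, was higher, with means of 6.80 in WT and 8.20 in *Alkbh1*-/- mESCs. Its log2 difference was 1.40, a fold of 2.65 (interval 1.00 to 1.81, adjusted p = 0.00250). Of its 5 probe sets, 4 were called higher and the dimmest was at 0.45. *Rai1*, a nuclear protein named for its induction by retinoic acid, was at −0.66 (adjusted p = 0.00472), with another probe set at −0.16 that was not called.

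Of the 31 genes with a DR5 in a promoter window, 6 were measured and 0 of them were called (limma's moderated test). Their log2 differences ran from −0.72 to 0.20, with a median of −0.03. Of the 12 measured genes with a DR2, 2 were called, both lower. Against the 8.6% of all genes that were called, these counts are too small to set either group apart.

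Markers of further cell types differed in brightness. All 10 primitive endoderm markers lay below the median of all probe sets. Of these, *Sox7* was called higher at 0.88 and *Dab2* was at −0.92 (adjusted p = 0.0858), with a list median of −0.03. Of 11 measured neuroectoderm markers, 5 lay at or above that median. *Sox11* and *Neurod1* were called lower at −1.64 and −1.41, 9 of the 11 were not called, and the list median was −0.17. In this list 9 genes were lower and 2 higher. Without the fold, 3 lower and 1 higher had an adjusted p under 0.05 (limma's moderated test), against 12.9% of all probe sets. With the fold, 8.6% were called over the brightest probe set of each gene. Of the 10 stem cell markers, *Nanog* and *Klf4* were called higher, at 1.10 and 0.67, and 8 were not called. In this list 9 genes had a higher mean in *Alkbh1*-/- mESCs and 1 a lower one, with a median of 0.37. Without the fold, 5 higher and 1 lower had an adjusted p under 0.05 (limma's moderated test), against the same 12.9% of all probe sets. The part of such cells in the differences of the members was not tested.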

How the data were processed

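Expression was measured on Affymetrix mouse genome arrays of 3 WT and 3 *Alkbh1*-/- samples. Robust multi-array normalization of all arrays was done by the authors, whose deposited main table gives log2 differences and mean log2 values for 33142 probe sets. It also holds, as deposited, a score (limma's moderated statistic), whose sign is opposite to the difference for all 33142. A second deposited table, a class comparison, holds geometric mean intensities of each genotype. Of its 4326 entries, 4261 matched the larger table by value within 0.0001 and 8 of these by identifier, so it was joined by value. Deposited columns of folds, p-values and log odds were not used.

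The design had foreseen a fit to single arrays. Instead, limma's quantities were recovered: the standard error as the difference over the statistic, and the prior degrees of freedom (3.14) and prior variance (0.0160) as the pair that limma's empirical Bayes step returns from the variances. Added to the 4 residual degrees of freedom, this made 7.14, from which p-values and 95% confidence intervals follow. The recovery was tested on simulated data. Adjustment was by the Benjamini-Hochberg method over all probe sets. The number of arrays limits the precision. The median standard error was 0.11 on the log2 scale.

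Probe sets were named through RefSeq genes of GRCm38.p6, and 28262 (85.3%) had a name. The members and lists were chosen with earlier results of these data known. Named are the members, *Alkbh1*, called genes of the pathway lists (1 of these is not reported here) and the 2 largest differences of each marker list. Further pathway genes, among them *Fabp5*, *Rdh10*, *Cyp1b1*, *Cyp26b1*, *Rxrb*, *Rxrg*, *Ncoa2*, *Ncoa6*, *Carm1*, *Cdx1* and *Stra8*, were picked with their values in view. The tests ran in limma 3.58.1 (R 4.3.3), the tables in pandas 2.3.3 (Python 3.11.15) and the plots in matplotlib 3.10.9. Alternatives covered the variance estimate, the thresholds, the choice of probe set, a filter on dim probe sets, the sex chromosomes and centring.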

Additional observations from a re-analysis of the deposited data

How the results depend on the processing

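With values of single arrays not analysed, leaving out each replicate in turn could not be run. No paired analysis was possible because the replicate numbers of the labels could not be tied to values, only summaries of the comparison being used. Most alternatives leave a log2 difference as it is by construction, so its sign says nothing of stability. For *Rarg* the adjusted p ranged from 0.00215 to 0.0467 and for *Aldh1a2* from 0.000940 to 0.0163, leaving out treat and the unadjusted p, and Student's test on the recovered variances kept both calls. For *Crabp2* it ranged from 0.0525 to 0.244. Under treat, 0 members were called (0 higher and 0 lower), with *Aldh1a2* at 0.89 (adjusted p = 0.254) and *Rarg* at −0.77 (adjusted p = 1), and 428 probe sets were called in all. At a log2 difference over 1.5 in size, 0 members were called (0 higher and 0 lower), since *Aldh1a2* at 0.89 and *Rarg* at −0.77 lie under it, and 248 probe sets remained. The study words its own threshold both as a fold over 1.5 and as a log2 fold over 1.5, and it reports 248 differing transcripts. With the unadjusted p, 2 members were called lower, *Crabp2* at −0.80 being added. Among probe sets at or above the median mean, 1 member was called and 0 higher, because *Aldh1a2* is below that median. Student's test called 1429 probe sets, and no fold threshold 4290, against 2315.

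The pathway lists, whose alternatives were chosen after the data were seen, had 1, 1, 0, 1, 1 and 3 calls, in the order uptake, enzymes, hydroxylases, retinoid X receptors, coregulators and induced genes. Treat left 0 for uptake, retinoid X receptors, coregulators and induced genes, and a log2 difference over 1.5 left 0 in each list but the induced genes, with 1. No fold threshold gave 2 for uptake, 2 for retinoid X receptors and 5 for coregulators, and the unadjusted p gave 2 for enzymes. The dimmest probe set gave 0 for enzymes, retinoid X receptors, coregulators and induced genes. Uptake had 0 with Student's test and 0 at or above the median mean, and coregulators 0 without X- and Y-linked probe sets.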
